A study of Homo sapiens with 16 samples.

Results

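MALAT1 is a long non-coding RNA of nuclear speckles, and it carried 126 of the 4768 Ago2 peaks in the authors' deposited table, 2.64% of them. The members were chosen by name, as all peaks annotated to MALAT1, and no measured value entered the rule. Earlier results of these data were known when it was set. Argonaute 2 (Ago2) is the protein that holds a microRNA and pairs it with target RNA, and in CLIP the protein is fixed to its RNA by crosslinking and pulled down with an antibody, and the RNA that comes with it is sequenced. Libraries came from 293S cells, an established human embryonic kidney line, untreated or exposed to 1 µM hippuristanol for 30 min. Hippuristanol is a natural product that blocks the RNA helicase eIF4A and thereby the start of translation. The labels give 2 cultures per condition. Each was divided into 1 RNA-seq aliquot and 3 CLIP aliquots for Ago2 antibodies from Abnova, Santa Cruz and Sigma, so that 12 CLIP and 4 RNA-seq libraries are described.

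Each peak has 1 log average over both treatments and 1 log ratio of hippuristanol over untreated, which the authors pooled over libraries. A log ratio above 0 stands for more normalized signal after hippuristanol. Neither the base of the logarithm nor the normalization is stated, so values stay in the log units of the authors and are not turned into folds. Because each value is pooled over cultures and antibodies, differences have no replicate check, and none was tested. Intervals cover the spread over peaks of this table and not the spread between cultures. They take peaks as independent, although some overlap. The depth of the libraries is unknown. Of 5 genes fixed as markers of this embryonic kidney line, VIM, which encodes the filament protein vimentin, was the 1 with an Ago2 peak, and none of 8 markers of other cell types had one. A gene without a peak may still be expressed.

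MALAT1 is made in the nucleus, where most of it stays in speckles, the bodies that store splicing factors. The RNA is unusual in lacking a poly(A) tail, since its 3′ end is made by cleavage and closes into a triple helix. Ago2 is best known for its action on mRNA in the cytoplasm, but it is also present in nuclei. MicroRNAs such as miR-9, miR-101 and miR-217 have been described as partners of MALAT1.

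The microRNA sequences below are shown because Ago2 reaches a transcript through the seed, bases 2 to 8 of the microRNA, which are in capitals. They are 5 members of families widely expressed in cultured cells and the 3 described partners of MALAT1, from RefSeq on GRCh38.p14, and were picked after the table had been seen. No small RNA data were used here, so their presence in 293S cells was not examined.
let-7a-5p: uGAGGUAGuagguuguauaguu
miR-16-5p: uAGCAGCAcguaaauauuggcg
miR-17-5p: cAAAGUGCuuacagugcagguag
miR-19b-3p: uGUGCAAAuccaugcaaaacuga
miR-92a-3p: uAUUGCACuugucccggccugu
miR-9-5p: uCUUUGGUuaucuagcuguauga
miR-101-3p: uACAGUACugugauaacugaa
miR-217-5p: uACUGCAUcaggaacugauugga

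Perfect 7-nt matches to these 8 seeds were searched on the sense strand of the MALAT1 transcript that GENCODE 29 pairs with the table's RefSeq entry, 8708 nt long with 40.3% G and C. The comparison set was 27 other long intergenic RNA genes with a transcript at least as long, each read over its first 8708 nt. Their median share of G and C over that length was 44.9%. MALAT1 held 8 matches in all. For microRNAs with 2 matches in MALAT1, at least as many were held by 25.9% of the others (miR-16), 29.6% (miR-17) and 11.1% (miR-217). The miR-16 match, TGCTGCT, occurred at 2 places, and 66.7% of the other RNAs held at least 1. GCACTTT, the miR-17 match, also occurred at 2 places, against 70.4% of the others with 1 or more. For miR-92a the match GTGCAAT occurred once, and 51.9% of the others held it. ATGCAGT, the match of miR-217, was found at 2 places and in 44.4% of the others, and GTACTGT, that of miR-101, at 1 place and in 29.6% of the others. No match was present for let-7a (CTACCTC, in 48.1% of the others), miR-19b (TTTGCAC, in 37.0%) or miR-9 (ACCAAAG, in 33.3%).

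A miR-217 match and the miR-101 match overlapped in the 3′ part of the transcript, and both are printed here with the 15 bases before and the base after each match, which is in capitals. Positions are counted from 1 at the transcript's 5′ end.
miR-217 match at 6623 to 6629: tctgttggcaagtaaATGCAGTa
miR-101 match at 6628 to 6634: tggcaagtaaatgcaGTACTGTt
They share 2 bases. These are matches of letters, not measured sites. The peaks are given in hg19 coordinates, for which no genome sequence was used here, so neither the letters under a peak nor the peak nearest to a match is stated.

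Ago2 peaks formed an almost continuous cover over the stretch of MALAT1 in which they lay. All were on the plus strand of chromosome 11, between 65266522 and 65273581 (hg19, coordinates as in the authors' deposited table), in the exon of the non-coding RNA. This span of 7059 nt equals 81.1% of the length of the annotated transcript. The remaining 1649 nt of that length carried no listed peak, and how they divide between the 5′ and 3′ ends was not determined. Peaks that shared at least 1 nt were merged, which gave 89 regions, of which 65 held a single peak, 16 held 2 and 8 held 3 or more. Together they covered 5934 nt, 84.1% of the span. No peak of another gene lay inside the span.

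The spaces between regions were small. Their median was 5 nt, and 55 of the 88 were 10 nt or less. Only 3 exceeded 50 nt. The widest, of 118 nt, separated the first peak from the second. Regions could therefore be counted in very different ways: merging across gaps of up to 10 nt left 34, and across gaps of up to 50 nt left 4. The longest region by the overlap rule ran over 227 nt, from 65268057 to 65268284, and consisted of 4 peaks. In the authors' deposited table its peaks had log ratios of −0.48, −0.61, −0.17 and −0.62, all below 0.

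Peak density varied along the RNA. In the 14 full windows of 500 nt from the start of the first peak, each window held 6 to 12 peaks, and between 69.6% and 93.0% of its nucleotides lay under a peak. The lowest cover was in the first window, which holds the widest gap, and the highest in the window from 2500 to 3000 nt, which also had the most peaks. With 126 peaks, MALAT1 had the rank 2 among 2213 genes by number of peaks and held 18.3% of the 690 distinct peaks in exons of non-coding RNAs. Per length of the span with peaks it was close to NEAT1, an RNA of paraspeckles. The last NEAT1 peak ends 72547 nt before the first MALAT1 peak on the same strand. The NEAT1 span was 3695 nt, and what share of the NEAT1 transcript this is was not determined. MALAT1 had 17.8 peaks per 1000 nt of span and NEAT1 17.6, with 84.1% and 84.4% of the span covered.

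MALAT1 peaks were long for this table. Their lengths ran from 17 to 121 nt with a median of 48 nt, against 39 nt over all 4718 peaks with distinct values and 50 nt for NEAT1. Longer peaks tended to have higher log averages, with Pearson's r of 0.43 and Spearman's rho of 0.38 over the 126 peaks. The relation was weaker among the 65 peaks that overlapped no other (r of 0.19, rho of 0.18). These correlations are descriptions over peaks of the same pooled libraries.

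**Figure D1:**
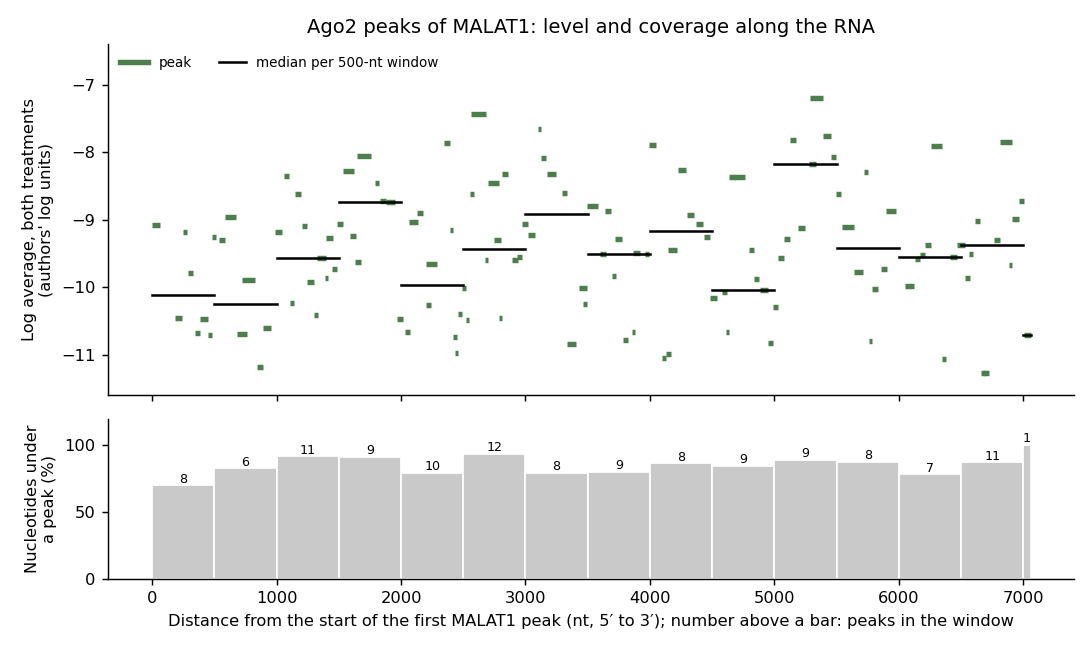
Log average of every MALAT1 peak (upper panel, green bars, authors' log units) and share of nucleotides under a peak (lower panel, %) against the distance from the start of the first peak in nt. Black lines are medians per 500-nt window, and the number above each grey bar counts the peaks in it. Every full window is at least 69.6% covered, and the window from 5000 to 5500 nt has the highest median level.

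The normalized Ago2 level on MALAT1 was low throughout, at each of its peaks. The log averages ran from −11.27 to −7.21 with a median of −9.47 (95% interval −9.60 to −9.26), against a median of −6.76 over all peaks. All 126 lay below the median of all peaks, 117 lay in the lowest 25% of all peaks and 67 in the lowest 10%. Of the 584 peaks with a log average below −9, 89 were in MALAT1 and 393 in exons of non-coding RNAs, MALAT1 included. NEAT1 had no peak so low. Its log averages lay between −8.48 and −5.66 with a median of −7.00, which is 2.47 above the MALAT1 median. Whether the log average is set relative to the amount of RNA is not stated in the sources used, so a low value does not state that few reads came from MALAT1.

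The 5 peaks with the highest levels lay between 2560 and 5456 nt from the start of the first peak. In the authors' deposited table the highest log average, −7.21, belonged to the peak at 65271805 to 65271911, and its log ratio was −0.34. The next, −7.43, was at 65269082 to 65269203, the longest single peak at 121 nt, with a log ratio of −0.17. Log averages of −7.66 at 65269624 to 65269650, −7.77 at 65271912 to 65271978 and −7.81 at 65271646 to 65271694 followed in the authors' deposited table. Of these 5 peaks, 3 lay in the window from 5000 to 5500 nt, whose median of −8.17 was the highest of any full window. The log ratios of the last 3 peaks named were −0.06, 0.77 and 0.22 in the authors' deposited table, so the peaks of highest level lay on both sides of 0.

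The lowest levels stood beside higher ones. In the authors' deposited table the overlapping peaks at 65273185 to 65273217 and 65273203 to 65273245 had log averages of −11.27 and −11.27, with log ratios of 0.41 and −0.53. A log average of −11.18 was listed in the authors' deposited table for the peak at 65267362 to 65267410, in the second window, whose median of −10.25 was the lowest. From the 5′ to the 3′ side of the midpoint of the span the level was nearly flat, with medians of −9.43 over 64 peaks and −9.47 over 62. The difference of −0.04 changed sign with the summary used, to 0.05 with means, 0.06 over merged regions and 0.12 between the first and last of 3 equal parts of the span.

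Log ratios on MALAT1 were centred slightly below 0, while those of most other transcripts were centred above it. With 126 peaks, their median was −0.11 (95% interval −0.19 to −0.02) and their quartiles were −0.40 and 0.22. The median of all other peaks was 0.16, so that MALAT1 stood 0.27 lower. A log ratio above 0 was listed for 50 of the 126 peaks (39.7%, exact Clopper-Pearson interval 31.1% to 48.8%), against 59.1% of all peaks. Relative to the median of all peaks, which was 0.15, 37 of the 126 (29.4%) lay above it, where 50% of all peaks do. How the authors set the 0 of the log ratio is not given, so the offset from all other peaks is given beside the sign. Fewer reads from an RNA and weaker binding per RNA molecule cannot be told apart in these pooled values.

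Large log ratios were few. More than 1 log unit above 0 were 6 peaks (4.76%), against 11.3% of all peaks, and more than 1 below 0 were 2 (1.59%), against 4.22% of all peaks. Relative to the median of all peaks there were 4 on each side, or 3.17%, against 7.48% of all peaks above and 6.76% below. The SD of the log ratio was 0.52 over MALAT1 peaks, 0.45 over NEAT1 peaks and 0.69 over all peaks but those of MALAT1. Within 0.5 of 0 lay 67.5% of the MALAT1 peaks, 69.2% of the NEAT1 peaks and 52.0% of all peaks but those of MALAT1.

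The peak with the highest log ratio stood far from the others and near the 5′ end of the span. It was the second peak, at 65266703 to 65266765 (181 to 243 nt from the start of the first), where the authors' deposited table lists a log ratio of 2.05 and a log average of −10.45. Only 1 other peak, the first, lay before it, and in the authors' deposited table that peak stood at −0.03. The next highest log ratios were 1.23 at 65271100 to 65271141 and 1.17 at 65271360 to 65271397, both in the window from 4500 to 5000 nt, in the authors' deposited table. A log ratio of 1.17 at 65273404 to 65273432 and one of 1.10 at 65269544 to 65269602 completed the 5 highest in the authors' deposited table. The 5 had log averages between −10.45 and −9.23, and by level they ranked from 50 to 103 among the 126 peaks.

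The lowest log ratios lay in the middle and 3′ parts of the span. In the authors' deposited table the lowest was −1.24, at 65272696 to 65272729 (6174 to 6207 nt from the start of the first peak). It was followed by −1.19 at 65270302 to 65270349, −0.92 at 65270014 to 65270103, −0.88 at 65271714 to 65271769 and −0.81 at 65270516 to 65270575 in the authors' deposited table. The peak at −0.81 had one of the higher levels of MALAT1, a log average of −7.89, and the peak at −1.19 one of the lower, −10.79, in the authors' deposited table.

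**Figure D2:**
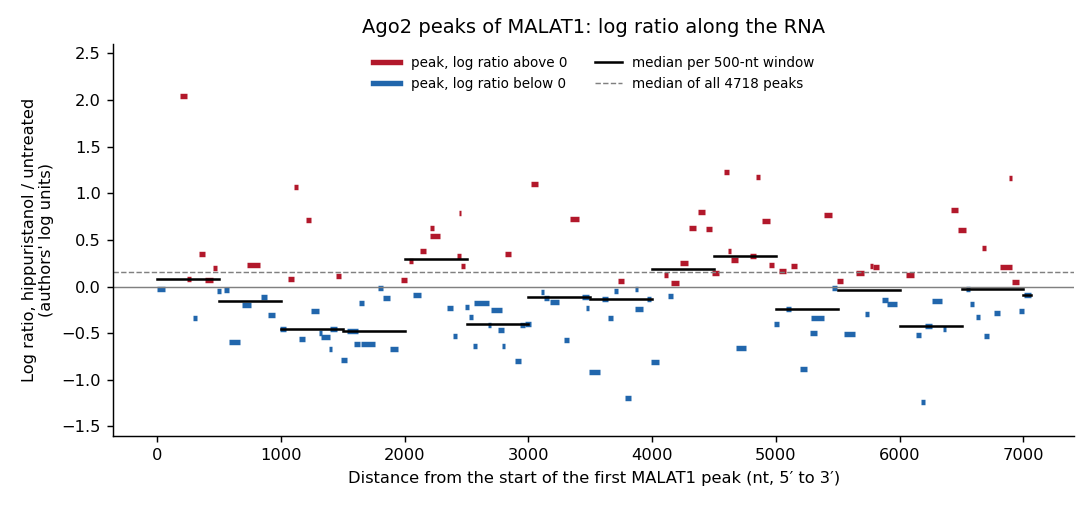
Log ratio of hippuristanol over untreated for each of the 126 MALAT1 peaks (vertical axis, authors' log units) against the distance from the start of the first peak in nt. Red bars are peaks above 0 and blue bars peaks below 0, black lines are medians per 500-nt window, and the dashed line is the median of all 4718 peaks, 0.15. Window medians lie between −0.48 and 0.33, and the stretch from 4000 to 5000 nt has mostly red bars.

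Log ratios did not change steadily along the RNA but differed between neighbouring stretches. Of the 14 full windows, 10 had a median below 0 and 4 above 0, and each window held peaks on both sides of 0. The lowest medians were −0.48 from 1500 to 2000 nt, where 1 of 9 peaks lay above 0, and −0.46 from 1000 to 1500 nt, where 4 of 11 did. The highest medians were 0.33 from 4500 to 5000 nt, with 8 of 9 peaks above 0, and 0.30 from 2000 to 2500 nt, with 7 of 10. The window from 2500 to 3000 nt came directly after the latter and had a median of −0.40, with 1 of 12 peaks above 0. In windows of 1000 nt, the one from 4000 to 5000 nt was alone in having a median above 0, at 0.29, with 14 of 17 peaks above 0, while the other full windows lay between −0.46 and −0.03.

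Over the whole length there was little trend. Pearson's r between log ratio and position was 0.04 over the 126 peaks and −0.07 over the 89 regions, and Spearman's rho was 0.08 and −0.01. The median was −0.17 (95% interval −0.31 to −0.04) on the 5′ side of the midpoint and −0.02 (−0.18 to 0.14) on the 3′ side. These intervals take overlapping peaks as independent, and whether the sides differ was not tested. Peaks above 0 numbered 21 of 64 on the 5′ side and 29 of 62 on the 3′ side. The difference of 0.15 was 0.00097 between the first and last of 3 equal parts of the span.

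Read from 5′ to 3′, the 126 peaks formed 53 runs of neighbours on the same side of 0, of which 26 were of a single peak and 7 of 5 or more, 6 of them below 0 and 1 above 0. The longest run was the 1 above 0, with 9 neighbouring peaks in 8 regions from 65270670 to 65271214 (4148 to 4692 nt from the start of the first peak). Its log ratios, in order, were 0.04, 0.25, 0.63, 0.80, 0.61, 0.14, 1.23, 0.39 and 0.29 in the authors' deposited table. The levels of these peaks were ordinary for MALAT1, with log averages from −10.67 to −8.27 and a median of −9.26. Whether the same peaks in random order would give runs as long was not tested.

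Below 0, the longest runs had 8 peaks each. The first ran from 65268009 to 65268470 in 5 regions, with log ratios from −0.79 to −0.02 and a median of −0.55. It took in the longest region named above. The second ran from 65269011 to 65269330 in 4 regions, with log ratios from −0.64 to −0.17 and a median of −0.37, and held the peak with the second highest level. The median log averages of the runs were −8.73 and −9.45, against −9.47 over all of MALAT1.

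Neighbouring peaks were more alike where they overlapped. Whether overlapping peaks were counted from the same reads is not stated. The 37 overlapping pairs of neighbours differed by a median of 0.23 in log ratio, and 27 had the same sign. The median difference was 0.47 over 34 pairs that were 0 or 1 nt apart, 0.49 over 34 pairs at 2 to 20 nt, and 0.69 over 20 pairs farther apart, with the same sign in 19, 17 and 10 pairs. Pearson's r between neighbours was 0.51 over overlapping pairs, 0.17 at 0 or 1 nt, 0.07 at 2 to 20 nt and 0.03 beyond. Abutting peaks could differ widely, by up to 1.50 among those 0 or 1 nt apart.

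**Figure D3:**
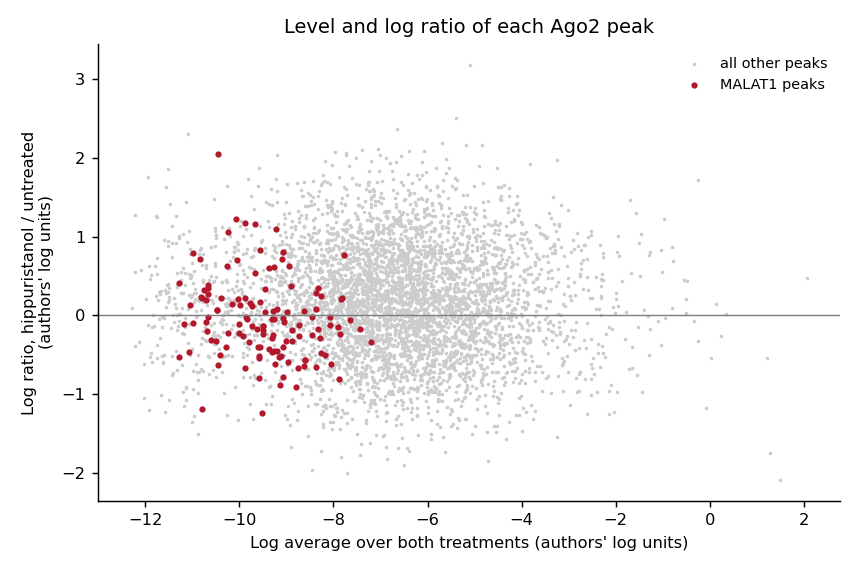
Log ratio (vertical axis) against log average (horizontal axis), both in the authors' log units, for the 126 MALAT1 peaks (red) and all other peaks (grey). MALAT1 peaks occupy log averages from −11.27 to −7.21, and their log ratios spread less toward the right of that range.

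Peaks of higher level on MALAT1 had somewhat lower and less scattered log ratios. Over the 126 peaks the log ratio had Pearson's r of −0.19 and Spearman's rho of −0.23 with the log average, and over the 65 peaks without overlap −0.11 and −0.09. In the 32 peaks of lowest level the median log ratio was 0.10, the SD 0.58 and 18 lay above 0. The groups next in level, of 31 peaks each, had medians of −0.14 and −0.09 and SDs of 0.57 and 0.50. The median therefore did not fall steadily with level. In the 32 of highest level the median was −0.18, the SD 0.38 and 8 lay above 0. No peak of that highest group was more than 1 log unit from 0. The part of sequencing depth in this scatter was not tested.

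Other peaks in the same range of levels had a higher median log ratio than MALAT1. The 1670 peaks of 645 other genes with a log average inside the MALAT1 range had a median log ratio of 0.18 (95% interval 0.15 to 0.22), with an SD of 0.68 and 61.8% above 0. Within that range their levels were not matched to those of MALAT1 peak by peak. Peaks in the exons of non-coding RNAs other than MALAT1 and NEAT1 numbered 499, with a median log average of −9.99, below that of MALAT1, and a median log ratio of 0.15. Of these, 61.1% lay above 0. RNAs with many peaks weigh more in this set. The difference between MALAT1 and either set has no replicate test. Counted by gene in a list of nuclear and long non-coding RNAs described below, 10 of 13 with peaks had medians below 0, NEAT1 included.

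NEAT1 had log ratios close to those of MALAT1 at higher levels. Its 65 peaks had a median log ratio of −0.05 (95% interval −0.22 to 0.06) with quartiles of −0.31 and 0.25, and 27 (41.5%) lay above 0. The median of MALAT1 minus that of NEAT1 was −0.05, and 0.05 when overlapping peaks were merged, so the order of the 2 RNAs depends on the summary. NEAT1 had 1 peak more than 1 log unit above 0, and none as far below.

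**Figure D4:**
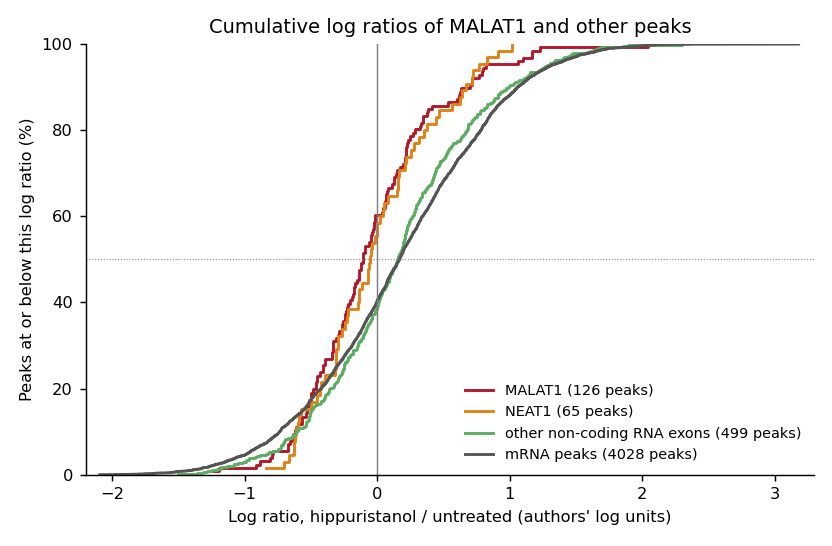
Share of peaks (vertical axis, %) at or below each log ratio (horizontal axis, authors' log units) for MALAT1, NEAT1, exons of other non-coding RNAs and mRNA peaks. The curves of MALAT1 and NEAT1 cross 50% at −0.11 and −0.05, those of the other non-coding RNAs and of mRNAs at 0.15 and 0.17. Curves count peaks and not genes, so RNAs with many peaks weigh more. Of 13 RNAs with peaks in a list of nuclear and long non-coding RNAs, NEAT1 included, 10 had gene medians below 0.

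Among the 43 genes with 10 or more distinct peaks, MALAT1 had the rank 10 from the lowest median log ratio and the rank 5 from the lowest median log average. Likeness was measured by the summed absolute differences in the median and both quartiles of the log ratio, taken over peaks and not over samples. The nearest gene was CCND1, which encodes cyclin D1, with quartiles of −0.37 and 0.23 and a median of −0.09 over 18 peaks. NEAT1 came next, and then WEE1, a kinase that restrains entry into mitosis, with quartiles of −0.50 and 0.33 and a median of −0.12 over 17 peaks. The level did not go with this likeness, since CCND1 had a median log average of −6.18 and WEE1 of −6.89. Genes near in level differed in their log ratios. CANX, the chaperone calnexin of the endoplasmic reticulum, had a median log average of −9.80 and a median log ratio of 0.77 over 14 peaks. A long intergenic RNA catalogued as TCONS_00017361 had a median log average of −9.14 and a median log ratio of 0.47 over 17 peaks. Somewhat farther in level were ZNF711 and EIF4G2, with median log averages of −9.92 and −9.01. The median log ratio was −0.15 over 18 peaks of ZNF711, close to that of MALAT1, and 0.43 over 11 peaks of EIF4G2.

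A list of nuclear and long non-coding RNAs without MALAT1 held 40 names, which are not all different RNAs, since both LINC00657 and NORAD were listed. Of these names 13 had Ago2 peaks, 103 in all, and 4 of the 13 had a single peak. The median of their gene medians was −0.19, and 10 lay below 0 and 3 above, whereas 60.5% of all 2213 genes lay above 0 with a median of 0.17. The list was picked by name and need not stand for non-coding RNAs in general. Counted by peak and not by gene, the 499 peaks in exons of non-coding RNAs other than MALAT1 and NEAT1 had a median of 0.15. RNAs with many peaks weigh more in that value. After NEAT1, the RNAs with the most peaks were SCARNA2, a guide RNA of Cajal bodies, with a median log ratio of −0.05 over 7 peaks, and LINC00657, also known as NORAD, which binds Pumilio proteins in the cytoplasm, with −0.22 over 6. RPPH1, the RNA of ribonuclease P, had the highest median, 0.48 over 6 peaks. The lowest was that of SNHG12, a host gene of small nucleolar RNAs, at −1.24 from 1 peak. Levels differed from those of MALAT1, since the gene medians of the log average lay between −7.95 and −4.67.

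Messages for the proteins of nuclear speckles did not lie to 1 side of 0. Of 44 such genes 20 had peaks, 49 in all, with gene medians above 0 in 10 and below 0 in 10 and a median of −0.00042. Against the median of all genes, 0.17, 7 lay above and 13 below. SRSF1, a splicing factor whose place in speckles has been tied to MALAT1, had a median log ratio of 0.24 over 10 peaks. Its relatives SRSF2 and SRSF6 had −0.48 and −0.35 over 5 peaks each, and the helicase gene DDX39B had 0.45 over 3. RBM25 and TARDBP, also with 3 peaks each, had 0.07 and −0.38. The extremes rest on single peaks, of 1.01 in THRAP3, a splicing and transcription cofactor, and −1.18 in SNRNP70, which encodes a protein of the U1 particle.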

How the data were processed

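The deposited table lists Ago2 CLIP peaks with position, strand, annotation and, per the file headers, 2 normalized values, a log average over both treatments and a log ratio between them. Both are scores pooled by the authors over libraries. The submitters' processing notes name hg19, TopHat, DESeq and Bowtie 0.12.8 without roles or order. The peak caller, filters, log base and the counting of starts are not stated there.

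Pairs of rows of a gene with identical values were counted once, which removed 50 rows, none in MALAT1, and left 4718. Peaks with a start below the previous end were merged. Windows of 500 nt took peaks by their midpoint. Medians have exact order-statistic intervals at 95%. The merging was tested on simulated data. The intervals were tested on MALAT1 log ratios redrawn at random as independent values, which leaves out any likeness of overlapping peaks. Calculations used Python 3.11.15, pandas 2.3.3, NumPy 2.4.6 and SciPy 1.17.1.

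The transcript and the microRNAs came from GENCODE 29 and RefSeq, and their GRCh38 coordinates were not used. The members, gene lists and summaries were chosen with earlier results of these data known. Named peaks were the 5 highest and 5 lowest log ratios, the 5 highest and 3 lowest log averages, the ends of the span, the longest region and the sides of the widest gap. Named genes were the 3 nearest to MALAT1 in quartiles of the log ratio and the 3 nearest in level, and from each list the 4 with the most peaks and both extremes. Some items that these rules name are not reported here. Runs, overlap classes, windows and the genes ZNF711 and EIF4G2 were described beside these. RBM25 and TARDBP were added because they tie with DDX39B in number of peaks. RNA-seq values were not analysed here.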

Additional observations from a re-analysis of the deposited data

How the results depend on the processing

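Across 42 alternative settings for 10 results, 31 kept the sign of the reported value and stayed within its interval. For counts the limit was 1.5 times in place of the interval. A change of sign was set apart even where the value lay inside the interval. A wide interval makes it easy to stay within. The log ratio on the 3′ side minus that on the 5′ side counted as kept in all 4 of its settings. Yet it fell to 0.00097 between the first and last of 3 equal parts. The median log ratio of MALAT1 stayed below 0 in all 11 of its settings, from −0.26 to −0.04. The value of −0.26 is relative to the median of all peaks, which also moved the share above 0 to 29.4%. As that median is above 0, this setting could only lower the MALAT1 median. Counting every row could change no MALAT1 value, since none of its rows had been removed as repeats. Leaving out each of 4 equal parts of the span, an alternative chosen after seeing the data, was among the 11 settings. With the higher-level peaks alone, 63 of the 126, 1.59% lay more than 1 above 0 and 0% more than 1 below, and merging gave 55 regions, as fewer peaks were used. Merging across gaps of up to 10 and 50 nt gave 34 and 4 regions. The level on the 3′ side minus that on the 5′ side reversed to 0.0625 over merged regions, 0.12 between the first and last of 3 equal parts and 0.0524 with means. MALAT1 minus NEAT1 reversed to 0.0528 over merged regions. The cause of these reversals was not tested. No paired analysis was possible because the values are pooled over the replicates, and for the same reason no replicate could be left out. Depth per library is unknown, so its limit on single peaks cannot be stated.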
